A study of Homo sapiens with 12 samples.

Results

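The genes that carry cells through G1 were followed here in OE33, an established human cell line from an esophageal adenocarcinoma. They are the D cyclins CCND1, CCND2 and CCND3, the E cyclins CCNE1 and CCNE2, the cyclin-dependent kinases CDK2, CDK4 and CDK6, and the CDK inhibitors CDKN1B and CDKN2B. These 10 genes were taken by symbol from the 57500 rows of a gene count matrix, and each symbol matched 1 row. Of them, 9 passed the filter on low counts, and CCND2 did not. D cyclins bind and activate CDK4 and CDK6, E cyclins bind and activate CDK2, and both kinds of complex phosphorylate the retinoblastoma protein RB, which frees E2F factors to switch on genes for DNA replication. CDKN2B (p15) binds CDK4 and CDK6 and keeps D cyclins off them, while CDKN1B (p27) inhibits cyclin E complexes with CDK2. In epithelia CDKN2B is a known target of TGF-beta signalling, and CCND1 is among the genes most often amplified in esophageal cancers.

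Poly(A) RNA was sequenced from 4 groups of 3 libraries each, which the series text describes as independent biological replicates. The shAPE1 group were OE33 survivors of repeated acidified bile salts that carried a stable hairpin against APE1, the DNA base excision repair endonuclease encoded by APEX1. The shCtrl group were the same survivors with a stable non-targeting hairpin. The rABS group were survivors without a hairpin, kept through 15 days of daily exposures of 20 minutes to 200 µM bile salts at pH 5.5. The Parental group were OE33 cells without exposure. All groups but Parental had thus been through the exposures, the labels describe a single APE1 hairpin, and they describe no mock-exposed cells and no hairpin in unexposed cells. No label gives the time between the last exposure and RNA isolation. The series asks what APE1 contributes to adaptation and genome stability under reflux-like conditions.

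Libraries held 15736087 to 23010377 counts over genes. APEX1 was at 4.42, 4.50 and 5.88 CPM (counts scaled to the library total) in shAPE1, against 62.0, 56.5 and 60.9 CPM in shCtrl, which was 12.2-fold lower, as the hairpin labels state (edgeR quasi-likelihood test, adjusted p = 3.75e-22). The 7 epithelial markers EPCAM, KRT8, KRT18, KRT19, CDH1, CLDN4 and ELF3 summed to 10564 to 11307 CPM in shAPE1, 11642 to 12852 CPM in shCtrl, 11731 to 14149 CPM in rABS and 14597 to 18154 CPM in Parental, so the epithelial label held in every library. The 6 fibroblast, 6 leukocyte and 4 endothelial markers summed to at most 29.5, 11.98 and 0.889 CPM in any library, with the fibroblast marker LUM at 0 in all libraries. The fibroblast sum was highest in Parental (22.5 to 29.5 CPM) and lay between 3.47 and 9.46 CPM in the other groups. Nearly all of it was COL1A1, at 3.33 to 29.4 CPM over the libraries, and no other fibroblast marker passed 0.188 CPM in any library. The part of any of these sums in the results below was not tested. In bulk RNA, fewer cells of a kind and less RNA per cell cannot be told apart, so a lower cyclin level can be either a lower level in each cell or fewer cells in the phase that makes it.

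Per kilobase of exon, CCND1 was the most abundant of the 10 genes in shAPE1, shCtrl and rABS, at 69.3 ± 0.993, 100.3 ± 2.54 and 94.8 ± 0.819 CPM per kb (SD, n = 3). In Parental, CDK6 was first at 45.9 ± 4.95 CPM per kb and CCND1 was next at 39.4 ± 0.889 CPM per kb. CCNE2 was the lowest of the 9 tested genes in every group, at 0.506 ± 0.106 in shAPE1, 0.791 ± 0.162 in shCtrl, 1.44 ± 0.249 in rABS and 0.137 ± 0.0332 CPM per kb in Parental. CDKN2B moved furthest along this order. It stood at rank 8 in rABS at 6.35 ± 0.567 CPM per kb, below CCND3 and CCNE1, and at rank 4 in Parental at 27.1 ± 0.970 CPM per kb, above CDKN1B and CDK2. Neighbours whose mean ± SD ranges overlapped were CDKN1B and CDK6 in shAPE1, CDKN1B and CCND3 in shCtrl, and CCND3 and CCNE1 in Parental.

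**Figure D1:**
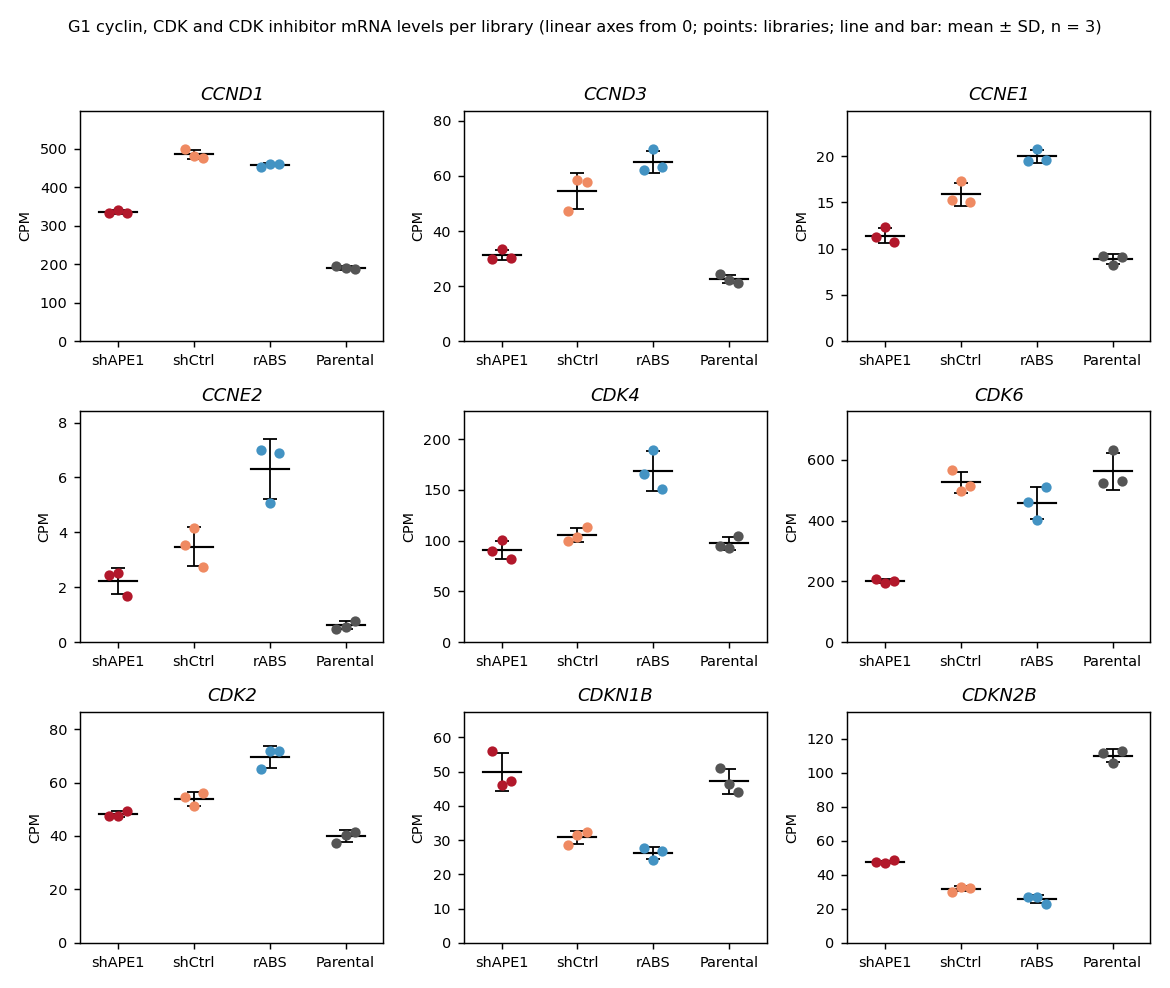
Level of each of the 9 tested G1 genes in each library, in CPM on linear axes from 0 that differ between panels, with groups drawn from left to right as shAPE1, shCtrl, rABS and Parental (points, libraries; line and bar, mean ± SD, n = 3). CCND1, CCND3, CCNE1, CCNE2, CDK2 and CDK4 are higher in rABS than in Parental, CDKN1B and CDKN2B are lower, and CDK6 stands apart in shAPE1 at 194 to 208 CPM.

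In rABS against Parental, cyclins, CDK2 and CDK4 were higher, both inhibitors were lower, and CDK6 was slightly lower. All 9 tested genes passed an adjusted p of 0.05 in the edgeR quasi-likelihood test with Benjamini-Hochberg adjustment, 6 higher and 3 lower. Across all 15805 genes tested, 59.8% passed, 29.9% higher and 29.9% lower, so that a call is common in this comparison. The median log2 fold change was 0.80 over the 9 genes and -0.01 over all genes tested. Rises and falls balance in the median of all genes, so it does not give the usual size of a change. At 2-fold or more, 4 of the 9 genes were called higher and 1 lower, against 1602 and 1472 of all genes tested. The libraries of the groups did not overlap for any of the 9, which also held for 63.1% of all genes tested.

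CCND1 was at 453, 460.0 and 460.0 CPM in rABS, against 195, 189 and 187 CPM in Parental. It rose 2.40-fold (log2 fold change 1.27 ± 0.06 SE, adjusted p = 7.04e-18). CCND1 encodes cyclin D1, the D cyclin of most epithelia, and the gene lies on GRCh38 chromosome 11 (69641087 to 69654474, plus strand). CCND3, which encodes cyclin D3 and lies on chromosome 6 (41934933 to 42050357, minus strand), was at 62.1, 69.7 and 63.3 CPM in rABS, against 24.3, 22.1 and 21.2 CPM in Parental. It rose 2.89-fold (adjusted p = 3.48e-15). The lowest rABS library was thus well above the highest Parental library for both D cyclins. CCND2 (chromosome 12, 4273772 to 4305350, plus strand) encodes cyclin D2, and it had 1 count in shAPE1 and 2 counts in shCtrl, each in replicate 2, and 0 counts in all libraries of rABS and Parental. A count of 0 over the 3 libraries allows up to 0.0550 CPM in rABS and 0.0568 CPM in Parental, taking 3 counts per group as the floor, and this covers counting error only.

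The E cyclins, which turn on CDK2 late in G1, rose by unequal factors. CCNE1 (chromosome 19, 29811898 to 29824308, plus strand) was at 19.5, 20.8 and 19.6 CPM in rABS, against 9.20, 8.23 and 9.14 CPM in Parental, a 2.26-fold rise (log2 fold change 1.18 ± 0.12 SE, adjusted p = 2.01e-10). CCNE2 (chromosome 8, 94879770 to 94896678, minus strand) had 123, 87 and 137 counts in rABS, against 7, 12 and 13 counts in Parental. In CPM these were 7.00, 5.06 and 6.91 in rABS, against 0.484, 0.561 and 0.767 in Parental. The rise was 10.3-fold (log2 fold change 3.37 ± 0.28 SE, adjusted p = 3.15e-12), the largest of the 9 genes, and it rests on few Parental counts. INTS8, a subunit of the Integrator complex transcribed from the opposite strand, shares 1629 of the 4397 exon bases of CCNE2 and had 414 to 889 counts. Its log2 fold change was 0.32 in rABS against Parental. No source used here gives the strand setting or the treatment of shared reads, so reads from such overlapping partners cannot be told apart.

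Among the kinases, CDK2 and CDK4 rose and CDK6 fell. CDK2 (chromosome 12, 55966769 to 55972784, plus strand) was at 64.9, 71.7 and 71.9 CPM in rABS, against 37.3, 40.5 and 41.6 CPM in Parental, 1.74-fold higher (adjusted p = 2.58e-10). CDK4 (chromosome 12, 57747727 to 57756013, minus strand) was at 165, 189 and 151 CPM in rABS, against 94.8, 92.8 and 105 CPM in Parental, 1.73-fold higher (adjusted p = 7.83e-10). CDK6, the other partner of the D cyclins, was at 462, 402 and 509.9 CPM in rABS, against 524, 632 and 531 CPM in Parental. The gap between the highest rABS and the lowest Parental library was small, and CDK6 fell 1.23-fold (log2 fold change -0.30 ± 0.08 SE, adjusted p = 0.00163). Against a fold of 1.2 in place of no change, CDK6 did not pass (adjusted p = 0.240). TSPAN31 lies opposite CDK4 and shares 1369 of its 3168 exon bases, and its log2 fold change was -0.55, opposite in sign to that of CDK4.

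Of the genes whose promoter windows were searched, CDK4 held the most matches to the E-box, letters that MYC and its partners can bind. The 300 bases around its start site (RefSeq, GRCh38.p14, chr12:57752261-57752560, minus strand, 250 bases before to 50 after the start) are shown because all 3 matches lie in them, and capitals mark every match to a motif searched.
CDK4 promoter: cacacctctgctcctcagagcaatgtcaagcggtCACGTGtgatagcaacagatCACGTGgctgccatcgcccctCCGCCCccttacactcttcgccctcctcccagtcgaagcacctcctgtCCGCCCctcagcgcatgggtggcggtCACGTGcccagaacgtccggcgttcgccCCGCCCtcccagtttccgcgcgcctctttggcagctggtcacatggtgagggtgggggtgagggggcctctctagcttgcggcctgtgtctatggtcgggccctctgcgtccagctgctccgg
The E-box letters CACGTG begin at -216, -196 and -101 from the start site. At least 1 match is held by 7.26% of the 35116 promoter windows of this length, and at least 3 by 0.094%. The other capitals in this window are the SP1 letters GGGCGG on either strand, which 45% of all windows hold. Promoter windows were searched for 6 of the genes, 9 windows in all, and CDK6 held a single E-box match in 1 of its windows. No window of CCND1, CCND2, CCNE2 or CDK2 was searched, so nothing here covers the promoters of these genes. CCNE1 had 7 matches to the SP1 letters, a number that 1.5% of windows reach, and CCND3 had the only match to the FOXO letters TGTTTAC, which 3.42% of windows hold. None of the 9 windows held the E2F letters TTTCCCGC or the variants TTTGGCGC and also TTTCGCGC and then TTTGCCGC, the letters CTTTGAT of TCF/LEF, the cAMP response element TGACGTCA or the AP-1 letters TGACTCA, and these were held by 3.31%, 2.62%, 1.85% and 4.95% of all windows. Both strands were searched and no 2 motifs overlapped in the window shown. A match is a description of letters, and no match says only that these letters are not in the window. MYC itself, named after its values were seen, had a log2 fold change of 0.33 in rABS against Parental and 0.65 in shAPE1 against shCtrl, at 1171 CPM in shAPE1 and 744 CPM in shCtrl.

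Both CDK inhibitors fell in rABS. CDKN2B (chromosome 9, 22002903 to 22009363, minus strand) was at 27.2, 26.99 and 23.1 CPM in rABS, against 112, 106 and 113 CPM in Parental. The fall was 4.28-fold (log2 fold change -2.10 ± 0.08 SE, adjusted p = 3.87e-20), and the highest rABS library was far under the lowest Parental library. CDKN1B (chromosome 12, 12715058 to 12722371, plus strand) was at 27.6, 24.3 and 26.8 CPM in rABS, against 51.0, 46.5 and 44.0 CPM in Parental. It fell 1.79-fold (log2 fold change -0.84 ± 0.10 SE, adjusted p = 3.37e-09). CDKN1B protein is set largely by degradation through the SKP2 ubiquitin ligase, which RNA does not show.

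**Figure D2:**
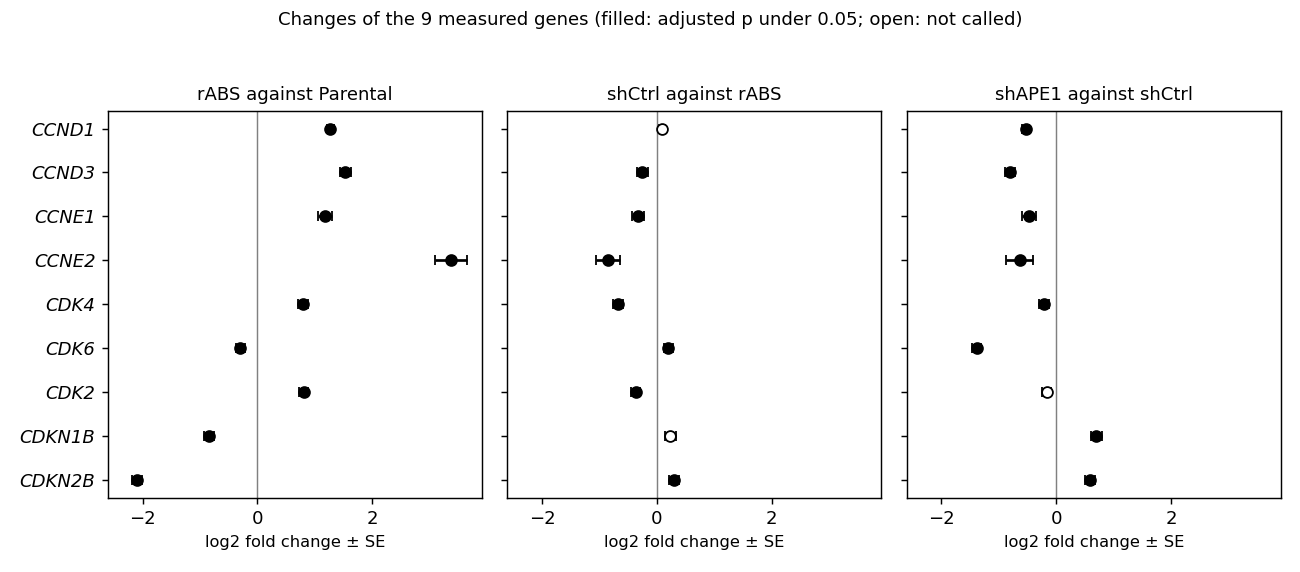
Log2 fold change (points) with its standard error (bars) of the 9 tested G1 genes in rABS against Parental, shCtrl against rABS and shAPE1 against shCtrl, filled where the adjusted p was under 0.05. The cyclins, CDK2 and CDK4 lie above 0 in rABS against Parental, from 0.79 to 3.37, and below 0 in shAPE1 against shCtrl, while CDKN1B and CDKN2B have the opposite signs.

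In shAPE1 against shCtrl, CDK6 had the largest difference of the 9 genes, CCND1, CCND3 and both E cyclins fell, and both inhibitors rose. By the edgeR quasi-likelihood test 2 of the 9 tested genes were higher, 6 were lower and 1, CDK2, was not called. Over all genes tested 36.6% were called in this comparison, 17.8% higher and 18.8% lower, and the median log2 fold change was -0.48 over the 9 genes and -0.02 over all. The libraries of the groups did not overlap for 8 of the 9 tested genes and for 46.9% of all genes tested.

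CDK6 (chromosome 7, 92604921 to 92836594, minus strand) was at 208, 194 and 202 CPM in shAPE1, against 566, 497 and 512 CPM in shCtrl. The shAPE1 libraries lay close together and far under every other library of the study. CDK6 fell 2.61-fold (log2 fold change -1.38 ± 0.08 SE, adjusted p = 7.54e-15). It was also 2.80-fold lower in shAPE1 than in Parental (adjusted p = 1.99e-16), so its level in shAPE1 was outside the range of the unexposed cells. CDK4 was at 89.6, 101 and 82.2 CPM in shAPE1, against 99.4, 104 and 113 CPM in shCtrl, and these ranges overlapped. Its log2 fold change was -0.22 ± 0.08 SE (adjusted p = 0.0416), and the call was lost in 12 of 20 alternative settings, among them RLE size factors (adjusted p = 0.0757) and DESeq2 (adjusted p = 0.1002). CDK2 was at 47.5, 47.4 and 49.4 CPM in shAPE1, against 54.4, 51.2 and 56.2 CPM in shCtrl, with a log2 fold change of -0.17 ± 0.08 SE (adjusted p = 0.105). The CDK2 groups did not overlap, but the difference did not pass the test.

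CCND1 was at 332, 340.2 and 332 CPM in shAPE1, against 499, 479.8 and 476 CPM in shCtrl. It fell 1.45-fold (log2 fold change -0.53 ± 0.06 SE, adjusted p = 1.49e-08) and was 1.76-fold above Parental (adjusted p = 5.26e-13). CCND3 was at 30.0, 33.4 and 30.3 CPM in shAPE1, against 47.2, 58.6 and 57.8 CPM in shCtrl. It fell 1.75-fold (adjusted p = 1.91e-08) and was 1.39-fold above Parental (adjusted p = 0.000126). CCNE1 was at 11.3, 12.3 and 10.7 CPM in shAPE1, against 15.3, 17.3 and 15.1 CPM in shCtrl, 1.39-fold lower (adjusted p = 0.00112, or 0.0526 against a fold of 1.2). For these 3 cyclins every shAPE1 library was between the shCtrl and the Parental libraries. CCNE2 had 49, 45 and 27 counts in shAPE1, against 67, 98 and 55 counts in shCtrl, or 2.46, 2.53 and 1.69 CPM in shAPE1 and 3.54, 4.16 and 2.74 CPM in shCtrl. The groups did not overlap, and CCNE2 fell 1.56-fold (adjusted p = 0.0308). That call was lost without shCtrl replicate 1 (adjusted p = 0.0689), without shCtrl replicate 2 (adjusted p = 0.169) or without shAPE1 replicate 3 (adjusted p = 0.151). It was also lost against a fold of 1.2 (adjusted p = 0.108). INTS8 on the opposite strand of CCNE2 had a log2 fold change of -0.31 here, the same sign.

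CDKN1B was at 56.1, 46.1 and 47.3 CPM in shAPE1, against 28.7, 31.4 and 32.4 CPM in shCtrl. It rose 1.62-fold (log2 fold change 0.69 ± 0.09 SE, adjusted p = 3.55e-07). Its shAPE1 and Parental libraries overlapped, with a log2 fold change of 0.08 ± 0.09 SE between those groups (adjusted p = 0.470). CDKN2B was at 47.4, 46.9 and 48.4 CPM in shAPE1, against 30.1, 33.0 and 32.0 CPM in shCtrl. It rose to 150.0% of its shCtrl level (log2 fold change 0.58 ± 0.08 SE, adjusted p = 7.83e-07) but was 2.31-fold below Parental (adjusted p = 1.94e-14). Every shAPE1 library of CDKN2B was thus between the shCtrl and the Parental libraries.

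Words of 7 letters were also looked up in 3′ UTRs, namely TGCATTC with its neighbours GCATTCT further on and CTGCATT further back. They came from an earlier search of these same libraries for words shared by genes lower in shAPE1, so they are no independent evidence. The 3′ UTR of APEX1, the gene the hairpin is directed against, held 2 sites, no label gives the hairpin's sequence, and whether the words relate to it was not tested. CDK6 held 3 sites in its 3′ UTR of 10219 bases, CCND1, CCND3 and CCNE2 held 1 each, and CCND2, CCNE1, CDK2, CDK4, CDKN1B and CDKN2B held none. Each of the 4 genes with a site was called lower in shAPE1, and the sites of CCND1, CCND3 and CDK6 are shown, that of CCNE2 not, each in 25 bases from the GENCODE 29 transcript (GRCh38) with the word in capitals.
CCND1, chr11:69652484-69652508, plus strand: aaaaaggttTGCATTCtcacattgc
CCND3, chr6:41935741-41935765, minus strand: cagccatgtCTGCATTtcggtggct
CDK6, chr7:92614410-92614434, minus strand: agatgtgcaTGCATTCtatttagtc
CDK6, chr7:92612722-92612746, minus strand: aatttttcaGCATTCTttagaattt
CDK6, chr7:92606742-92606766, minus strand: ttagtgtttCTGCATTgccataggg
Over all genes tested with a 3′ UTR, 36.7% of 3628 with a site were called lower in shAPE1 against 15.9% of 8843 without one. Among UTRs over 5000 bases these shares were 33.9% of 779 and 16.7% of 203. CCNE1, without a site, was called lower too, and whether the sites have a part in any of these differences was not tested. Among 70 other genes of the G1 network with a 3′ UTR, 6 of 19 with a site and 21 of 51 without one were called lower. In the same 2 sets, 2 and 5 were called higher. The 6 lower genes with a site were TGFBR1, TCF7, E2F7, TGFBR2, RB1 and FOXO1. Their log2 fold changes were -1.72, -1.23, -1.15, -0.94, -0.80 and -0.68.

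The control hairpin itself went with changes in these genes. In shCtrl against rABS, 2 of the 9 tested genes were higher and 5 were lower, and 36.5% of all genes tested were called, 17.9% higher and 18.6% lower. CDK4 fell 1.60-fold, to 105 ± 7.00 CPM in shCtrl against 169 ± 19.4 CPM in rABS (SD, n = 3 each, edgeR adjusted p = 9.86e-08). CDK2 fell 1.29-fold (adjusted p = 0.000381) and CCNE2 fell 1.81-fold (adjusted p = 0.00152). CCNE1 and CCND3 were 1.26-fold and 1.19-fold lower (adjusted p = 0.0168 and 0.0256), and both calls were lost without shCtrl replicate 1 or without rABS replicate 2, that of CCNE1 also without shCtrl replicate 3. CDKN2B rose 1.23-fold (adjusted p = 0.00556), a call lost without rABS replicate 3 (adjusted p = 0.0621). Against a fold of 1.2, CDK2, CCNE1, CCND3 and CDKN2B did not pass (edgeR adjusted p = 0.135, 0.330, 0.608 and 0.384). CDK6 was 1.15-fold higher with overlapping libraries (adjusted p = 0.0488), and 12 of 20 alternative settings lost this call. CCND1 and CDKN1B were not called, with log2 fold changes of 0.08 ± 0.06 SE and 0.23 ± 0.10 SE. Vector, selection and time in culture cannot be told apart in this comparison.

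Against Parental, the hairpin groups and rABS share the same reference libraries, so their values are given side by side. In shCtrl 5 of the 9 genes were higher than in Parental and 2 were lower (53.1% of all genes tested were called, 27% higher and 26.1% lower). In shAPE1 the counts were also 5 higher and 2 lower (53.7% called, 26.2% higher and 27.5% lower). CCND1 was 1.76-fold above Parental in shAPE1, 2.55-fold in shCtrl and 2.40-fold in rABS. CCNE2 was 3.67-fold above Parental in shAPE1, 5.71-fold in shCtrl and 10.3-fold in rABS. CDKN2B was 2.31-fold below Parental in shAPE1, 3.47-fold in shCtrl and 4.28-fold in rABS. CDK4 was the gene of the set whose rABS difference was not called in either hairpin group, with log2 fold changes against Parental of -0.10 ± 0.08 SE in shAPE1 (adjusted p = 0.322) and 0.11 ± 0.08 SE in shCtrl (adjusted p = 0.257). In shAPE1, CCNE1 was 1.29-fold above Parental (adjusted p = 0.0102), a call lost without Parental replicate 2 (adjusted p = 0.0588) or against a fold of 1.2 (adjusted p = 0.149).

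Per kilobase, CDK6 made up 37.5%, 33.3% and 38.8% of the CDK4 and CDK6 level in shAPE1, 59.5%, 55.3% and 53.9% in shCtrl, 41.9%, 35.4% and 46.6% in rABS, and 58.8%, 63.8% and 56.7% in Parental. Per kilobase, CDK6 was thus the larger kinase RNA in shCtrl and Parental, and CDK4 the larger in shAPE1 and rABS. This order depends on the division by exon length. In CPM, CDK6 was above CDK4 in every group, at 201 and 90.8 in shAPE1 and 525 and 105 in shCtrl. In rABS the values were 458 and 169 CPM, and in Parental 562 and 97.4 CPM. The difference in share was -19.7 percentage points in shAPE1 against shCtrl, where CDK6 fell, and -18.5 points in rABS against Parental, where CDK4 rose. The smallest p that 3 against 3 libraries allow is 0.1 in the exact two-sided permutation test, and both differences reached it (0.136 when adjusted over the 15 share tests). The summed level of CDK4 and CDK6 was 45.1 ± 2.58 CPM per kb in shAPE1 and 76.1 ± 2.40 in shCtrl, against 90.6 ± 1.74 in rABS and 76.6 ± 4.12 in Parental.

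CCND1 made up most of the D cyclin RNA everywhere, with a mean share of 92.8% in shAPE1, 91.4% in shCtrl, 89.4% in rABS and 91.0% in Parental. The summed D cyclin level was 74.7 ± 1.33 CPM per kb in shAPE1, 109.8 ± 1.49 in shCtrl, 106 ± 1.38 in rABS and 43.3 ± 1.16 in Parental (SD, n = 3 each). CCNE1 had a mean share of the E cyclin RNA of 89.9% in shAPE1, 88.8% in shCtrl, 84.5% in rABS and 96.2% in Parental. The difference was -11.7 points in rABS against Parental (exact permutation p = 0.1, the smallest possible). Shares within a library do not depend on how libraries are scaled to each other.

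**Figure D3:**
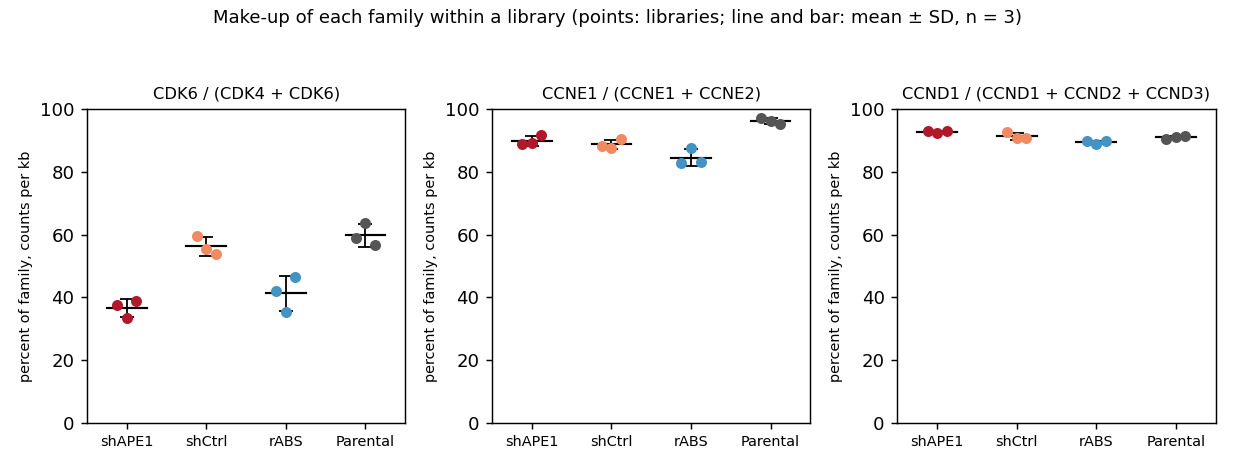
Share of CDK6 in CDK4 plus CDK6, of CCNE1 in the E cyclins and of CCND1 in the D cyclins, in percent of CPM per kb, with groups drawn from left to right as shAPE1, shCtrl, rABS and Parental; points are libraries, and line and bar are mean ± SD (n = 3). The CDK6 share lies between 33.3% and 38.8% in shAPE1 and between 53.9% and 59.5% in shCtrl.

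The genes that act on or under these G1 regulators were read from the same fit, where 29.9% of all genes tested were higher and 29.9% lower in rABS against Parental, and 17.8% higher and 18.8% lower in shAPE1 against shCtrl. The median log2 fold changes of all genes were -0.01 and -0.02. Among 5 other CDK inhibitors, 3 fell and none rose in rABS against Parental, a share called close to the 59.8% of all genes, and the median log2 fold change was -0.67. CDKN2A, whose locus neighbours CDKN2B and encodes p16 and ARF, fell to 170.0 CPM in rABS against 342 CPM in Parental (adjusted p = 2.03e-13). CDKN1A, the p53 target p21, fell to 125 CPM in rABS against 198 CPM in Parental (adjusted p = 2.64e-09), and CDKN1C (p57) had a log2 fold change of -0.93. In shAPE1 against shCtrl none of these 5 inhibitors was called higher, unlike CDKN1B and CDKN2B. CDKN1C and CDKN2C fell (log2 fold changes -1.44 and -0.67), and CDKN1A was at 55.8 CPM in shAPE1 and 55.7 CPM in shCtrl. CDKN2A had a log2 fold change of 0.15, the same sign as CDKN2B, but was not called (edgeR adjusted p = 0.110). CDKN2D was not called either (-0.09).

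Of 13 RB family, E2F and DP genes, 10 rose and 2 fell in rABS, and 1 rose and 6 fell in shAPE1 against shCtrl, with median log2 fold changes of 0.56 and -0.16. E2F1, which RB restrains, was at 89.1 CPM in rABS and 17.2 CPM in Parental (adjusted p = 5.65e-20), and at 32.2 CPM in shAPE1 and 59.5 CPM in shCtrl (adjusted p = 1.91e-09). RBL1 (p107) and the E2F partner TFDP1 rose in rABS with log2 fold changes of 2.42 and 1.55. RB1 itself fell in shAPE1 to 33.6 CPM, against 58.5 CPM in shCtrl, as did the repressor E2F7 (log2 fold change -1.15). Among 8 genes of the CDK-activating kinase, CDC25 and WEE1 families, 3 rose and 5 fell in rABS, and none rose and 5 fell in shAPE1 against shCtrl, with median log2 fold changes of -0.54 and -0.34. CDC25A, the phosphatase that activates CDK2, was at 33.5 CPM in rABS and 5.59 CPM in Parental, and at 14.9 CPM in shAPE1 and 27.3 CPM in shCtrl. PKMYT1, which inhibits CDK1, followed the same signs (log2 fold changes 1.43 and -0.53), while CDC25B fell in rABS (-0.75) and CDC25C fell in shAPE1 (-0.73).

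Of 18 ubiquitin ligase parts that act on G1 cyclins and p27, 6 were higher and 4 lower in rABS, and 4 higher and 3 lower in shAPE1 against shCtrl. These shares are near the 59.8% and 36.6% of all genes called, and the median log2 fold changes were 0.05 and 0.06. SKP2, the receptor that targets p27, was at 44.4 CPM in rABS and 9.78 CPM in Parental (adjusted p = 1.85e-17), and at 41.9 CPM in shAPE1 and 31.6 CPM in shCtrl (adjusted p = 0.00116). SKP2 thus rose in shAPE1 together with CDKN1B RNA. AMBRA1, the adaptor that targets D cyclins for degradation, was at 69.5 CPM in rABS and 137 CPM in Parental, and at 116 CPM in shAPE1 and 68.4 CPM in shCtrl, opposite in sign to CCND1 and CCND3 RNA in both comparisons. In shCtrl against rABS, AMBRA1 was not called (log2 fold change -0.02), while CCND3 fell (-0.25) and CCND1 was not called (0.08). AMBRA1 acts on cyclin D protein, which RNA does not show, and a link between these RNA levels was not tested. DDB1, a subunit of the same ligase, rose in rABS (log2 fold change 0.86), and CDC34, a ubiquitin-conjugating enzyme, rose in shAPE1 (0.51).

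Among 15 factors upstream of cyclin D and inhibitor genes, 7 rose and 5 fell in rABS, and 2 rose and 5 fell in shAPE1 against shCtrl, where 36.6% of all genes were called. The median log2 fold changes of the list were -0.14 and -0.19. TGFBR1 and TGFBR2, the receptors through which TGF-beta acts on CDKN2B, were at 12.05 and 72.0 CPM in shAPE1 against 39.8 and 138 CPM in shCtrl (adjusted p = 1.12e-14 and 8.05e-12), while CDKN2B rose. SMAD3, their signal carrier, was at 401 CPM in rABS and 682 CPM in Parental (adjusted p = 8.98e-12). TCF7, which acts with beta-catenin, rose in rABS and fell in shAPE1 (log2 fold changes 1.16 and -1.23), and FOXM1 rose in rABS (0.97). LEF1, named after its values were seen, had the largest log2 fold change of the list, 5.55 ± 0.49 SE, at 3.87 CPM in rABS and 0.0848 CPM in Parental. The Parental level was near the floor of 0.0568 CPM for 3 counts in that group, so the size rests on few counts.

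Of the 5 S and M phase cyclins and CDK1, 4 rose and 1 fell in rABS, and 4 fell in shAPE1 against shCtrl, with median log2 fold changes of 0.62 and -0.43. CCNA2 was at 83.6 CPM in rABS and 54.2 CPM in Parental, and at 72.2 CPM in shAPE1 and 99.1 CPM in shCtrl. CDK1 had log2 fold changes of 0.74 in rABS against Parental and -0.54 in shAPE1 against shCtrl, and CCNF (0.80 in rABS) and CCNB1 (-0.41 in shAPE1) were also called. CCNB2 was the gene that fell in rABS (log2 fold change -0.35), unlike the G1 cyclins, and CCNF was not called in shAPE1 against shCtrl (-0.12). In shCtrl against rABS, CCNA2, CCNB1 and CCNB2 rose (log2 fold changes 0.25, 0.39 and 0.65), and CDK1 and CCNF fell (-0.24 and -0.51). CCND3, CCNE1 and CCNE2 fell in that comparison, and CCND1 was not called (0.08). The part of a different share of cycling cells in the results was not tested. Of 6 CDK chaperones and binding partners, 4 rose and 2 fell in rABS, and 2 fell in shAPE1 against shCtrl, with a median log2 fold change of 0.34 in rABS. CDC37, the chaperone that loads CDK4 onto HSP90, had log2 fold changes of 0.76 in rABS and -0.01 in shAPE1 against shCtrl, and HSP90AB1 was at -0.23 in the second comparison. CCNDBP1, which binds D cyclins, was at 13.1 CPM in rABS and 56.6 CPM in Parental (adjusted p = 5.98e-18), and CDK2AP1 rose in rABS (log2 fold change 1.07) and fell in shAPE1 (-0.25).

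**Figure D4:**
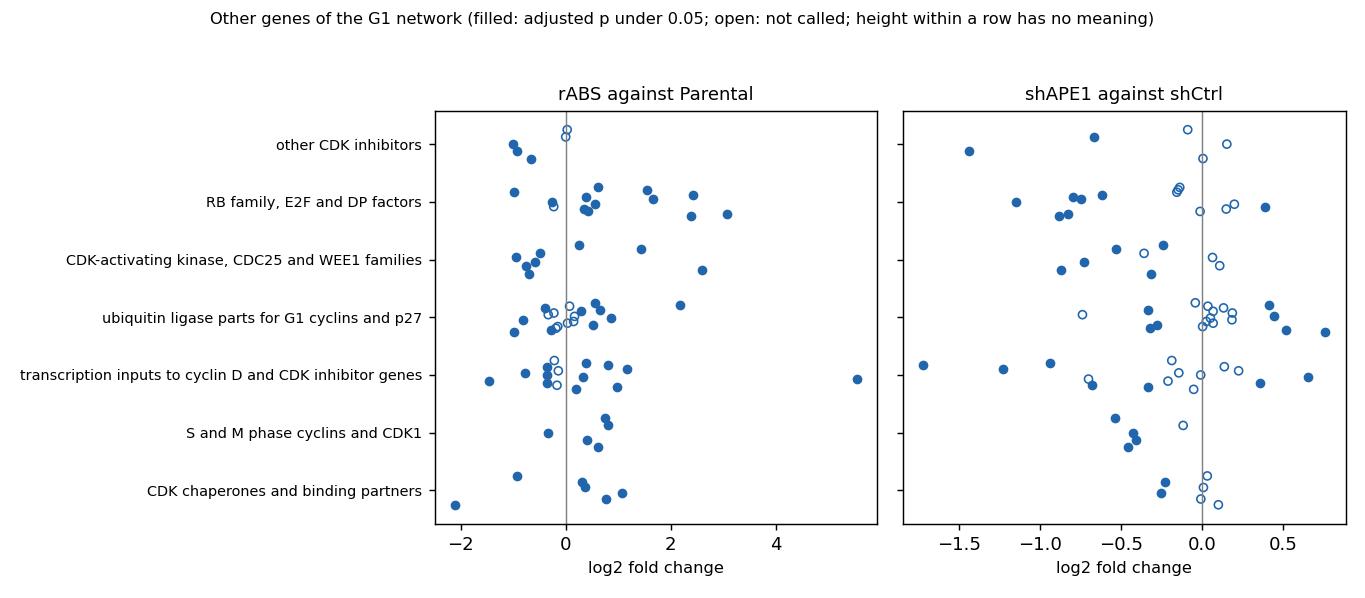
Log2 fold change of every other G1 network gene (one point each, no error bars), in rows by list, in rABS against Parental and in shAPE1 against shCtrl; the axes of the panels differ, and points are filled where the adjusted p was under 0.05. In shAPE1 against shCtrl no S and M phase cyclin, CDK chaperone or other CDK inhibitor is filled above 0, and TGFBR1 lies furthest below 0, at -1.72.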

How the data were processed

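Poly(A) RNA of OE33 cells was sequenced in 12 libraries. The deposited file holds raw gene counts by Ensembl ID, which the authors made, per the submitters' processing notes, with Trimmomatic 0.36, STAR 2.5.2b and featureCounts of Subread 1.5.2 on GRCh38. No source used here gives the annotation release, the strand setting or the treatment of multi-mapping reads. Symbols, positions, union exon lengths and 3′ UTRs (longest, protein-coding transcripts) came from GENCODE 29, promoters from RefSeq (GRCh38.p14).

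Counts of all 12 libraries were fitted in 1 model with a term per group in edgeR 4.0.16 (R 4.3.3, limma 3.58.1): TMM scaling, filterByExpr (minimum count 10, minimum total 15), robust quasi-likelihood tests, and Benjamini-Hochberg adjustment over the 15805 genes tested, called at an adjusted p under 0.05. CPM values use TMM-scaled library sizes. The scripts were checked on simulated data. The 10 genes and all lists were chosen with earlier results of these data known. Named are all 10 genes, APEX1, and up to 3 called genes per list by adjusted p in each of rABS against Parental and shAPE1 against shCtrl. For the 3 genes with the widest range of group means, the 3 genes of at least 5 CPM with the closest profile are also named. Genes named outside this rule are CCNB2, FOXO1, the cell type markers, those with overlapping exons and those said to be so. Depth was 15736087 to 23010377 counts, and no libraries agreed within sampling noise. Floors take 3 counts per group. Replicate numbers are shared across groups. The deviations of same-numbered libraries from their group means correlated at -0.167 to 0.109. These values show no strong pairing over all genes, but they cannot exclude a weaker one, so the main fit has no replicate term and a block was an alternative. Alternatives were RLE and upper-quartile scaling, DESeq2 1.42.0, no and stricter filters (1 CPM in 3 libraries), a fit of the 6 libraries compared, a replicate block, a fold threshold of 1.2, and each library left out.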

Additional observations from a re-analysis of the deposited data

How the results depend on the processing

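Of 45 results (9 tested genes in 5 comparisons), 33 were on the same side of the threshold in all 20 alternatives, 11 lost their call in at least 1, 1 (CDKN1B in shCtrl against rABS) gained one, and no called value changed sign. CDKN1B in shAPE1 against Parental, which was not called, had a log2 fold change of -0.01 without shAPE1 replicate 1 (0.08 with all libraries). Against a fold of 1.2, 2747 genes and 5 of the 10 G1 genes were called in shAPE1 against shCtrl (5784 and 8 without that threshold), and 2517 and 2 in shCtrl against rABS (5767 and 7). With single libraries left out, the G1 genes called ranged from 6 to 8 in shAPE1 against shCtrl and from 4 to 8 in shCtrl against rABS, with 4 without rABS replicate 2; the cause was not tested. With raw counts in place of counts per kb, the CDK6 share was lower by other amounts, -12.2 points in rABS against Parental, -14.3 in shAPE1 against shCtrl and -16.2 in shAPE1 against Parental, and the CCNE1 share differed by -17.6, -11.5 and -9.84 points in rABS, shCtrl and shAPE1 against Parental; this follows from the unequal exon lengths. With the replicate number as a block, 5485 genes and 7 G1 genes were called in shAPE1 against shCtrl, 5457 and 6 in shCtrl against rABS, and 9266 and 9 in rABS against Parental; CDK4 in shAPE1 against shCtrl (adjusted p = 0.0515) and CDK6 in shCtrl against rABS (adjusted p = 0.0695, both edgeR) lost their calls under the block, where 1 of 18 same-numbered pairs correlated over 0.1. The call of CDK4 in shAPE1 against shCtrl was also lost without Parental replicate 1, rABS replicate 1, shCtrl replicates 2 or 3, or shAPE1 replicates 1 or 3, and that of CDK6 in shCtrl against rABS without replicate 1 of any group, rABS replicate 2, or replicate 3 of Parental, shCtrl or shAPE1. Depth limits CCNE2, at 7 to 13 counts in Parental, and CCND2, at 0 to 2.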

Other observations

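Genes were also ranked by how closely their profile over the 12 libraries followed a G1 gene, by the root mean square difference of log2 CPM after centring each gene on its mean. For CCNE2 the closest were JCAD, FEN1 and UHRF1, with differences of 0.26, 0.29 and 0.30. FEN1, the flap endonuclease of lagging strand synthesis and long-patch base excision repair, averaged 44.1 CPM in shAPE1, 72.5 in shCtrl, 130.3 in rABS and 14.0 in Parental. UHRF1, which guides maintenance DNA methylation, averaged 55.7 CPM in shAPE1, 86.9 in shCtrl, 128 in rABS and 17.0 in Parental. For CDKN2B the closest were TMEM45B, TMPRSS4 and VASN, each at 0.13 to 0.14. VASN, a cell surface protein that binds TGF-beta, averaged 107 CPM in shAPE1, 78.7 in shCtrl, 56.7 in rABS and 228 in Parental. For CCND3 the closest were CTXN1, DDX11 and BRI3BP, at 0.10, 0.11 and 0.12, and DDX11, a DNA helicase, averaged 24.0 CPM in shAPE1, 39.1 in shCtrl, 52.0 in rABS and 16.9 in Parental.

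The range of group means on the log2 scale was 3.18 for CCNE2, 2.09 for CDKN2B, 1.52 for CCND3, 1.48 for CDK6, 1.35 for CCND1 and 0.80 for CDK2, and its median over all genes tested was 0.76.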
